A study of Mus musculus with 24 samples.

Results

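The 43 genes described here encode the DNA replication machinery, and were taken by symbol from a deposited table of 17111 genes in mouse muscle stem cells after injury. They divide by role into 5 genes of origin licensing (Orc1, Orc6, Cdc6, Cdt1, Gmnn), 12 of the replicative helicase (Mcm2 to Mcm7, Mcm10, Cdc45, Gins1 to Gins4) and 8 of the replicative polymerases (Pola1, Pola2, Prim1, Prim2, Pold1, Pold2, Pole, Pole2). A further 8 encode the sliding clamp, its loader and the single-strand binding protein (Pcna, Rfc1 to Rfc5, Rpa1, Rpa2), 2 process Okazaki fragments (Lig1, Fen1), 5 make deoxynucleotides (Rrm1, Rrm2, Tyms, Tk1, Dut) and 3 handle chromatin behind the fork (Chaf1a, Chaf1b, Uhrf1). All 43 symbols were found, each in a single row.

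Replication is licensed in G1, when the origin recognition complex, CDC6 and CDT1 load the MCM2-7 ring onto DNA, and geminin, the product of Gmnn, blocks CDT1 once S phase has begun. CDC45 and the GINS complex turn the loaded ring into an active helicase, primase and the polymerases copy the strands, and PCNA, placed by replication factor C, holds the polymerases on DNA. Many of these genes are transcribed under E2F factors as cells leave quiescence, and muscle stem cells, quiescent in uninjured muscle, enter the cell cycle after injury.

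The study sequenced RNA of muscle stem cells in bulk, in 24 libraries and 6 groups of 4 libraries. KO cells came from mice labelled L2A-Pax7CreER, in which an inducible Cre driven by Pax7 acts in muscle stem cells on Lamp2a, the Lamp2 transcript for the lysosomal receptor of chaperone-mediated autophagy. WT cells came from mice labelled L2A-WT, and the labels name no control with Cre and intact Lamp2a, so the Cre allele and the loss of Lamp2a cannot be told apart. KO and WT cells were each taken from uninjured muscle (day 0) and at 1 and 4 days after an intramuscular injection of 50 µL of 10 µM cardiotoxin, a venom toxin that kills muscle fibres. The labels give no age or sex and the same batch number for every library. Nor do they tie each library to an animal, so the p-values rest on the spread between these samples alone, which may be technical.

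Libraries held 11.58 to 22.47 M reads, and a floor of 3 counts stood at 0.145 to 0.32 on the scale of the normalised read count. That is the deposited value per gene, a read count scaled by a factor for its library. This floor covers counting error only. Lamp2 as a whole gene did not differ by the test between KO and WT at any day (limma, adjusted p = 0.523, 0.887 and 0.981 at days 0, 1 and 4), which checks neither the labels nor the splice form. All 10 muscle stem cell markers were detected, and their summed level was 2881 to 3311 in KO and 2461 to 3356 in WT libraries at day 0, 4658 to 5967 in KO and 4158 to 5944 in WT at day 1, and 1119 to 1294 in KO and 1093 to 1260 in WT at day 4. In bulk RNA, fewer cells of a type and less RNA per cell cannot be told apart, which holds for every value below.

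Promoters were read from RefSeq (build GRCm38.p6), from 250 bases before to 50 after the annotated start, and 35 of the 43 genes had one. No promoter sequence was read for Gmnn, Mcm4, Gins1, Gins2, Gins4, Prim2, Pole or Rfc2. A search on both strands for TTTCCCGC, TTTGGCGC, TTTCGCGC and TTTGCCGC, the letters of an E2F motif, found at least 1 match in 14 of the 35 genes (40.0%), against 4.54% of the 11251 tested genes with a promoter read. Counted by promoter, 34.15% of the 41 promoters of these genes held one, against 2.27% of all 32851 promoters listed. The CCAAT letters of the NF-Y motif were present in 62.9% of the 35 and in 43.1% of the tested genes, while TTTGAA or TTCGAA, the letters of the CHR element of mitotic promoters, were present in 7 of the 35 and in 17.1% of the tested genes. Capitals below mark E2F matches in either strand. The first 3 promoters are shown because they carry such matches in genes that rose at day 1 in both genotypes: Mcm3 (chr1:20820263-20820562, minus strand) with 2, Mcm6 (chr1:128359656-128359955, minus strand) with 3, of which 2 overlap, and Cdc6 (chr11:98907901-98908200, plus strand) with 1.
Mcm3: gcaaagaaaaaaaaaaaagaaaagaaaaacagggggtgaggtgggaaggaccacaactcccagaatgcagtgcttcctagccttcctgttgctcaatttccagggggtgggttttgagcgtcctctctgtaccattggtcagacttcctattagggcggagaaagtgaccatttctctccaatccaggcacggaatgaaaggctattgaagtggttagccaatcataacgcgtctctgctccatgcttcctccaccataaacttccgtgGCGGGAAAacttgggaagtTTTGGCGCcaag
Mcm6: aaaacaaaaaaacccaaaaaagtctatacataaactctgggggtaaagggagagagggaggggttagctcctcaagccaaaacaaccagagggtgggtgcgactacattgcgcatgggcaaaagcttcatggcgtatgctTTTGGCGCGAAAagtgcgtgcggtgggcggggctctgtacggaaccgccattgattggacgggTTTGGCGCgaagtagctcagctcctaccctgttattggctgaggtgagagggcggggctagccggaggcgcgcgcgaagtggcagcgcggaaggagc
Cdc6: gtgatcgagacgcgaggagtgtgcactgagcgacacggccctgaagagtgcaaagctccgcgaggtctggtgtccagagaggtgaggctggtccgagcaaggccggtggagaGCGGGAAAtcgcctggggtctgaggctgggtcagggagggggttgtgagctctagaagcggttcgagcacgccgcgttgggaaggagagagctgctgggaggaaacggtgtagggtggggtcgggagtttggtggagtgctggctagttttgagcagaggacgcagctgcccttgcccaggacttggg
The next 3 belong to the only genes of the 43 that did not pass the test at day 1 in either genotype: Orc6 (chr8:85299382-85299681, plus strand) with 0 matches, Pola1 (chrX:93632106-93632405, minus strand) with 1 and Tk1 (chr11:117825965-117826264, minus strand) with 0.
Orc6: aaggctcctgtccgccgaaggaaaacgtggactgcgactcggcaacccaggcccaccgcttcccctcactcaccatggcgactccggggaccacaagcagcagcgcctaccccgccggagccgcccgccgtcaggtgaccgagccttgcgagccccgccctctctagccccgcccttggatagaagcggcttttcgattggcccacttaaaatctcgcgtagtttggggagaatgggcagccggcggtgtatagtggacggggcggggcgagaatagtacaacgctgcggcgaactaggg
Pola1: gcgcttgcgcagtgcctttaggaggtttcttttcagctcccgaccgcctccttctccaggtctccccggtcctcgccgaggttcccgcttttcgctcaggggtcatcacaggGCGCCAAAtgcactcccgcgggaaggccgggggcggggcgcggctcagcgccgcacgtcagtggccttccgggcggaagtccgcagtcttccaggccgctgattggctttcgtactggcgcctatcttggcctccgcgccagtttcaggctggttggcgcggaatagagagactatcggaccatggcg
Tk1: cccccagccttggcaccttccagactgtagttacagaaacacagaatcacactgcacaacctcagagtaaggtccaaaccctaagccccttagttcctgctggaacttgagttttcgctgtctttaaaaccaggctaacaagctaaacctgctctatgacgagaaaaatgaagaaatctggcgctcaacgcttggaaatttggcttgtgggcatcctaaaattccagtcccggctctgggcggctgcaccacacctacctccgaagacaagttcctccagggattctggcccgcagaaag
Among genes with a promoter read, 13 of the 32 that rose in WT at day 1 and 1 of the 3 that did not pass held an E2F match. In KO the counts were 11 of the 27 that rose and 3 of the 8 that did not pass. A match is a run of letters and not a measured binding site, and the absence of one says only that these letters are not in this window.

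The replication genes were low in uninjured muscle, high 1 day after injury and lower again at day 4. The mean was highest at day 1 for 37 of the 43 genes in KO and for 40 in WT, and over all 6 groups it was highest in WT at day 1 for 38 genes. The exceptions were Orc6, highest in KO at day 1, Gins3 in KO at day 0, Pola1 and Tk1 in WT at day 0, and Pola2 in WT at day 4. Together the 43 genes took 0.0662 to 0.111% of the counts of a KO library and 0.0617 to 0.0822% of a WT library at day 0, 0.239 to 0.320% in KO and 0.420 to 0.560% in WT at day 1, and 0.0446 to 0.0740% in KO and 0.111 to 0.132% in WT at day 4. The ranges of KO and WT overlapped at day 0 and did not at days 1 and 4. These shares are of all counts, of which mitochondrially encoded genes took 43.2 to 47.9% in KO and 28.0 to 31.4% in WT at day 4. On the normalised scale at day 4, the sum of the 43 genes was 600.8 to 856.3 in KO and 905.3 to 1072 in WT. Their median log2 level overlapped there, at 3.57 to 4.19 in KO and 3.97 to 4.28 in WT.

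**Figure D1:**
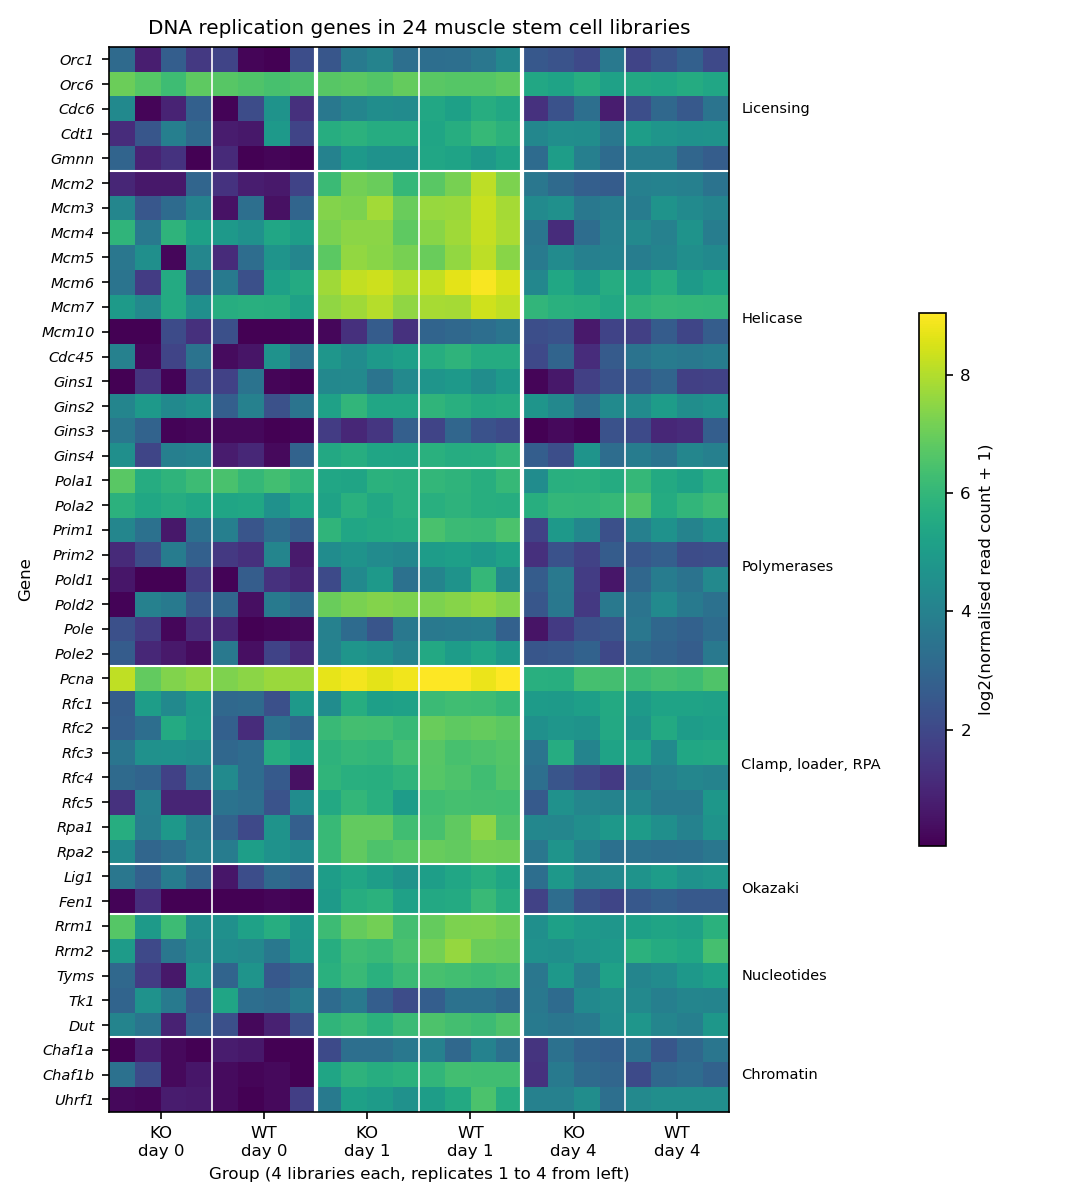
Levels of the 43 replication genes (rows, in blocks by role) in the 24 libraries (columns, KO left of WT at each of days 0, 1 and 4), as log2(normalised read count + 1), with colour for level. The day 1 columns are the highest for most rows, while Orc6, Pola1, Pola2 and Tk1 have no peak there.

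Per kilobase of transcript, the level of Pcna, the sliding clamp, was the highest of the 43 in all 6 groups, with a mean of 289 in KO and 330 in WT at day 1. The second highest at day 1 was Pold2, a small subunit of polymerase delta, with 89.8 in KO and 102 in WT. The 6 genes of the MCM2-7 ring, whose proteins stand in equal number in the ring, spanned means of 29.6 (Mcm2) to 72.1 (Mcm7) per kilobase in KO and 50.4 (Mcm2) to 91.1 (Mcm7) in WT at day 1. Pole, the catalytic subunit of polymerase epsilon, was among the lowest at day 1, with 1.36 in KO and 1.54 in WT, as was Gins3, with 1.06 in KO and 1.69 in WT.

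At day 0 the libraries of a group differed widely. The median coefficient of variation over the 43 genes was 77.7% in KO and 81.9% in WT at day 0, 22.4% in KO and 14.4% in WT at day 1, and 46.3% in KO and 25.6% in WT at day 4. Of the 43 genes, 34 reached a normalised count of 1 in 4 of the 8 day 0 libraries and 9 entered the test only through days 1 and 4, namely Gmnn, Mcm10, Gins3, Pold1, Pole, Fen1, Chaf1a, Chaf1b and Uhrf1. These 9 were tested because of their later libraries, so their changes from day 0 are given as a description. In WT at day 0, Fen1, Gins3 and Chaf1b were at or under the floor in every library, with 1, 5 and 6 counts in total, so the size of their log2 changes from day 0 rests on the added 1. KO replicate 1 was the highest KO library at day 0 for 21 of the 43 genes.

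Between day 0 and day 1, 35 of the 43 genes rose in KO and 40 in WT, and none fell in either. Of the 34 genes that reached the minimum through day 0 itself, 28 rose in KO and 31 in WT. DESeq2 and quantile normalization each called 1 gene lower in KO, Pola1, and edgeR none. The test was limma on log2(normalised count + 1) over all 24 libraries, with a Benjamini-Hochberg adjusted p under 0.05 over 16985 genes. Of all genes tested, 24.2% were called higher and 21.5% lower in KO, and 27.7% higher and 24.9% lower in WT. The median log2 change of the 43 genes was 2.40 in KO and 3.25 in WT, against -0.01 for all genes in both. All 35 genes that rose in KO also rose in WT. Orc1, Mcm10, Gins3, Pola2 and Rfc1 passed in WT and not in KO, and only for Rfc1 among these did the change itself differ between the genotypes by the test described below. That call was lost in 17 of 26 alternatives, which include fits without each library. Mcm10 and Gins3 did not reach the minimum through day 0.

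Of the 5 licensing genes, 3 rose in KO and 4 in WT at day 1. Both counts include Gmnn, which entered the test only through days 1 and 4, so its change is a description. Gmnn, which encodes the CDT1 inhibitor geminin, was 15.3, 29.0, 23.6 and 23.8 in KO at day 1, against 6.60, 0.894, 1.57 and 0.0457 in KO at day 0. In WT it was 40.7, 37.2, 28.6 and 37.2 at day 1, against 1.14, 0.0365, 0.116 and 0.0332 at day 0. Every day 1 library stood above every day 0 library of its genotype, and the log2 rise was 3.23 ± 0.50 (SE) in KO and 4.86 ± 0.50 in WT. Cdc6, which loads the MCM ring together with CDT1, was 11.4, 16.8, 20.7 and 19.9 in KO at day 1, against 19.1, 0.107, 0.911 and 5.89 at day 0. Its WT values were 42.5, 34.9, 49.5 and 42.4 at day 1, against 0.103, 3.39, 24.3 and 1.43 at day 0. One uninjured library of each genotype, KO replicate 1 and WT replicate 3, carried Cdc6 far above the other 3, and in KO the day 1 and day 0 libraries overlapped. The rise was 2.10 ± 0.79 in KO and 3.37 ± 0.79 in WT (limma, adjusted p = 0.032 and 0.000901). Orc6, a subunit of the origin recognition complex, did not take part in the peak: it averaged 108 ± 9.59 (SD, n = 4) in KO at day 1 against 104 ± 23.1 at day 0, and 104 ± 5.51 in WT at day 1 against 93.0 ± 7.69 at day 0.

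All 12 helicase genes rose in WT at day 1 and 10 of them in KO, Gins3 and Mcm10 being the exceptions. Both exceptions entered the test only through days 1 and 4, so their changes from day 0 are a description. The remaining 10 rose in both genotypes. Mcm2, a subunit of the ring, was 70.9, 140, 125 and 64.2 in KO at day 1, against 1.03, 0.537, 0.524 and 6.80 at day 0. In WT it was 106, 144, 278 and 151 at day 1, against 1.55, 0.693, 0.577 and 2.63 at day 0. No day 1 library came near a day 0 library, and the log2 rise was 5.27 ± 0.44 in KO and 6.17 ± 0.44 in WT (limma, adjusted p = 9.24e-10 and 4.78e-11), the largest of the role in both genotypes. Mcm3, another subunit of the ring, was 165, 151, 221 and 126 in KO at day 1, against 16.9, 4.54, 8.2 and 15.2 at day 0. Its WT libraries read 201, 206, 313 and 227 at day 1, against 0.378, 9.01, 0.346 and 6.95 at day 0. The groups did not overlap in either genotype, and the rise was 3.89 ± 0.50 in KO and 6.07 ± 0.50 in WT (limma, adjusted p = 8.41e-07 and 4.73e-10). Gins3, a GINS subunit and the gene with the lowest mean of the 43, had 2.08, 1.08, 1.75 and 5.75 in KO at day 1, against 11.2, 6.55, 0.0828 and 0.137 at day 0. In WT it had 2.68, 7.0, 4.01 and 3.32 at day 1, against 0.172, 0.182, 0.0385 and 0.0997 at day 0. The KO groups overlapped and the WT groups did not (0.02 ± 0.65 in KO and 2.16 ± 0.65 in WT).

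Of the 8 polymerase genes, 6 rose in KO and 7 in WT. Both counts include Pold1 and Pole, which entered the test only through days 1 and 4, so their changes are a description. Pold2 had the largest rise of the role, 4.63 ± 0.67 in KO and 4.81 ± 0.67 in WT (limma, adjusted p = 4.21e-06 and 1.79e-06). Both subunits of polymerase alpha that are not primase behaved otherwise: Pola1, its catalytic subunit, had a log2 difference of -0.58 ± 0.27 in KO and -0.29 ± 0.27 in WT and did not pass (limma, adjusted p = 0.0806 and 0.392), and Pola2, its accessory subunit, had -0.02 ± 0.21 in KO, which did not pass, and 0.56 ± 0.21 in WT (limma, adjusted p = 0.963 and 0.0307). Pola1 had been present before injury, at 71.2 ± 24.6 in KO and 73.1 ± 12.1 in WT at day 0.

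Of the clamp, loader and single-strand binding genes, 7 of 8 rose in KO and all 8 in WT. Pcna read 418, 469, 408 and 463 in KO at day 1, against 288, 117, 159 and 185 at day 0. In WT it read 517, 525, 441 and 521 at day 1, against 156, 175, 203 and 204 at day 0. All day 1 libraries were above all day 0 libraries of the same genotype, but its rise, 1.30 ± 0.20 in KO and 1.44 ± 0.20 in WT (limma, adjusted p = 1.11e-05 and 2.01e-06), was the smallest among the members of this role in WT. Rfc1, the large subunit of the clamp loader, was 20.2, 48.7, 34.1 and 35.4 in KO at day 1, against 5.41, 31.7, 18.9 and 30.7 at day 0. It was 71.8, 75.8, 75.2 and 64.7 in WT at day 1, against 7.46, 7.85, 3.73 and 28.6 at day 0. Thus the KO libraries of both days overlapped and the WT libraries did not (0.84 ± 0.45 in KO and 2.85 ± 0.45 in WT; limma, adjusted p = 0.133 and 1.01e-05).

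Fen1, the flap nuclease, and Lig1, the ligase that seals Okazaki fragments, rose in both genotypes. Of these, Fen1 entered the test only through days 1 and 4, so its change is a description. Fen1 reached 42.0 ± 11.3 in KO and 51.9 ± 12.3 in WT at day 1, against a day 0 mean of 0.374 ± 0.634 in KO and 0.0549 ± 0.0404 in WT (SD, n = 4 each). Of the deoxynucleotide genes, 4 of 5 rose in each genotype and Tk1, the thymidine kinase of the salvage route, did not pass in either (-0.51 ± 0.47 in KO and -0.69 ± 0.47 in WT; limma, adjusted p = 0.41 and 0.237). Rrm2, the regulated subunit of ribonucleotide reductase, was 49.2, 74.3, 69.2 and 86.8 in KO at day 1, against 30.2, 3.11, 11.3 and 18.6 at day 0. It was 143, 194, 128 and 123 in WT at day 1, against 20.5, 18.5, 11.6 and 25.9 at day 0. There was no overlap of days in either genotype (2.39 ± 0.40 in KO and 2.91 ± 0.40 in WT; limma, adjusted p = 2.63e-05 and 1.39e-06). The 3 chromatin genes, all among the 9 tested only through later days, were higher at day 1 in both. Uhrf1, which recruits the maintenance DNA methyltransferase to new DNA, was 12.5, 35.0, 30.4 and 23.4 in KO at day 1, against 0.166, 0.107, 0.635 and 0.594 at day 0. In WT it was 32.4, 44.3, 88.7 and 47.4 at day 1, against 0.241, 0.0365, 0.193 and 2.29 at day 0. Its days were fully separate too (4.19 ± 0.40 in KO and 5.08 ± 0.40 in WT).

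**Figure D2:**
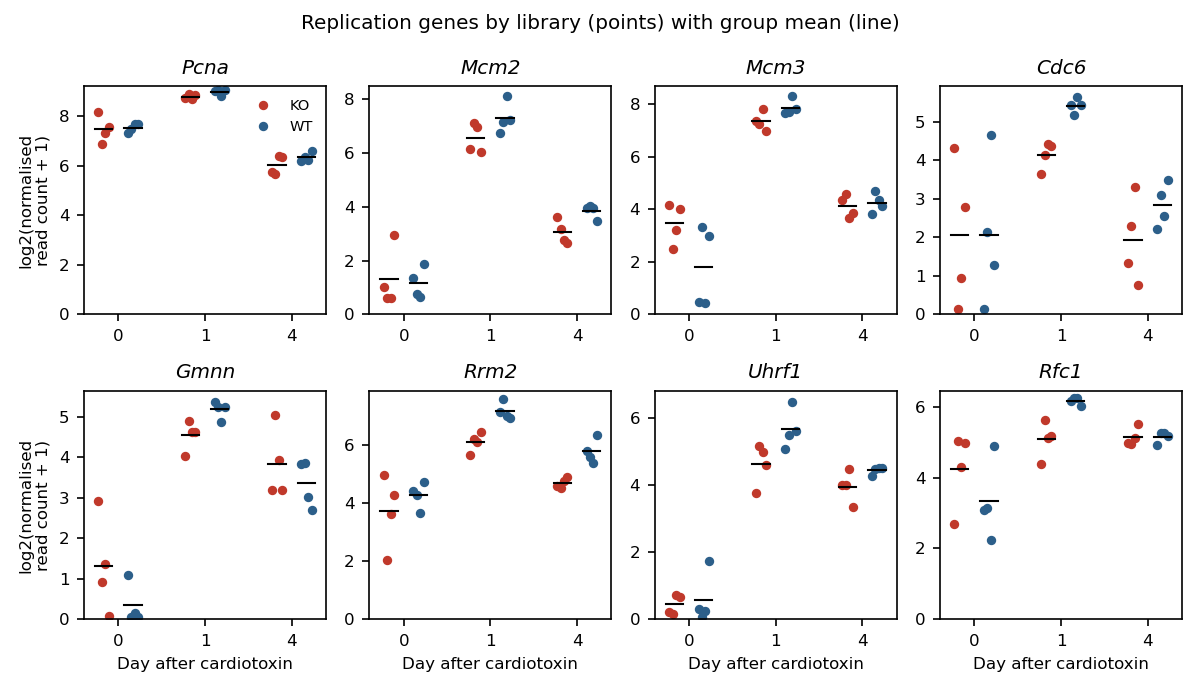
Log2(normalised read count + 1) of 8 replication genes in each library (points) at days 0, 1 and 4, KO (red) left of WT (blue), with group means as lines. The day 1 points are above the day 0 points of the same genotype in every panel except those of Cdc6 and Rfc1, where the KO points overlap, and at day 1 the KO and WT points of Cdc6, Rrm2 and Rfc1 are separate.

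At day 4 most of the replication genes had come down again. Compared with day 1, 31 of the 43 fell in KO and 32 in WT, and none rose, while DESeq2 called Pola2 and Tk1 higher in KO, quantile normalization Pola2 in each genotype and the fit to those groups alone Tk1 in WT. The test called 26.2% of all genes higher and 23.4% lower in KO, and 27.8% higher and 22.6% lower in WT. The median change of the 43 was -1.83 in KO and -1.89 in WT, against 0.18 and 0.22 for all genes. In both genotypes 29 of the 43 fell. Cdt1 and Pole passed in KO and not in WT, Gmnn, Orc1 and Uhrf1 in WT and not in KO, and none of these differences between genotypes was itself past the threshold. Of the 12 helicase genes 10 fell in each genotype, with Mcm4 the lowest at -4.26 ± 0.46 in KO and -3.64 ± 0.46 in WT. Pcna fell to 51.8, 50.1, 83.3 and 80.8 in KO and to 71.9, 79.7, 74.0 and 93.8 in WT at day 4, and every one of these 8 libraries lay below every library of day 0 and day 1. Other transcripts moved between the same days. The 18 macrophage and monocyte markers, all detected, averaged a sum of 1359 in KO and 1736 in WT at day 4, against 24.4 in KO and 16.7 in WT at day 1, while the 10 muscle stem cell markers averaged 1196 in KO and 1165 in WT at day 4, against 5048 in KO and 4751 in WT at day 1. Of these markers, 17 of 18 and 16 of 18 of the macrophage list rose in KO and WT, and 7 of the 10 stem cell markers fell in each. Mitochondrially encoded genes took a mean of 44.5% of the counts in KO and 29.9% in WT at day 4, against 5.11% in KO and 2.98% in WT at day 1. Their part in the fall of the replication genes was not tested.

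Set against uninjured muscle, the level at day 4 was still raised for some genes and below the start for others. In KO 9 of the 43 lay above day 0 by the test and 4 below it, and in WT 21 lay above and 3 below. Of the 34 genes that reached the minimum through day 0, 5 lay above and 4 below in KO, and 13 above and 3 below in WT, while limma called 22.3% of all genes higher and 18.2% lower in KO, and 25.7% higher and 18.9% lower in WT. The median change was 0.59 in KO and 1.35 in WT, against 0.18 and 0.23 for all genes. Uhrf1 stayed highest above its start, at 15.1, 14.8, 21.1 and 9.05 in KO and 18.2, 21.2, 21.6 and 21.6 in WT at day 4 (3.51 ± 0.40 in KO and 3.85 ± 0.40 in WT). Lower than at the start were Pcna (-1.44 ± 0.20 in KO and -1.20 ± 0.20 in WT) and Orc6 (-1.30 ± 0.16 and -1.11 ± 0.16) in both genotypes, Mcm4 (-2.17 ± 0.46) and Pola1 (-0.75 ± 0.27) in KO, and Rpa2, a subunit of the single-strand binding protein, in WT (-1.02 ± 0.31). The polymerase genes, of which Pold1 and Pole did not reach the minimum through day 0, included 4 that were higher in WT and 0 in KO. Whether the KO and WT counts differ was not tested.

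In uninjured muscle, 5 replication genes were higher in KO than in WT and 1 was lower, with 4.82% of all genes higher and 4.93% lower. The median difference of the 43 was 0.15 log2, against 0 for all genes. Gins4, a GINS subunit, was 21.8, 2.83, 14.2 and 15.2 in KO at day 0, against 0.653, 1.06, 0.193 and 6.55 in WT (2.36 ± 0.54; limma, adjusted p = 0.00602). Gins2, another subunit of the complex, was 16.5, 29.2, 18.7 and 22.6 in KO, against 5.74, 14.8, 3.89 and 10.5 in WT (1.34 ± 0.33, adjusted p = 0.0106). It was the only one of the 43 whose KO libraries were all above the WT libraries at day 0, where 3.23% of all genes showed this. Rfc2, a small subunit of the clamp loader, was 5.81, 8.91, 45.8 and 31.5 in KO, against 6.02, 1.28, 9.89 and 7.15 in WT (1.54 ± 0.47; limma, adjusted p = 0.0356). Rpa1, the large subunit of the single-strand binding protein, was 49.1, 13.7, 27.4 and 12.8 in KO, against 6.57, 3.1, 24.4 and 5.75 in WT (1.44 ± 0.43, adjusted p = 0.036). The genotypes overlapped in Gins4, Rfc2 and Rpa1, and for Rpa1 this came from WT replicate 3 alone. Mcm3, with its day 0 values given above, was higher in KO by 1.66 ± 0.50 (limma, adjusted p = 0.0356), and its libraries overlapped. Mcm7, a ring subunit, went the other way, with 29.7, 18.2, 45.0 and 21.8 in KO and 49.4, 51.6, 50.2 and 35.6 in WT (-0.75 ± 0.22; limma, adjusted p = 0.0289), where KO replicate 3 and WT replicate 4 overlapped. The count of 6 calls fell to 3 without WT day 0 replicate 2 and to 4 without KO day 0 replicate 4. None of these 6 calls was made when the 8 day 0 libraries were tested alone, when 0 of the 43 genes passed. Markers of fibro-adipogenic progenitors, of which all 10 were measured, summed to 1964 to 2442 in KO and 872.5 to 1062 in WT at day 0, where Pdgfra was at 0 in all WT libraries. The median log2 level of these markers overlapped between the genotypes, at 3.86 to 4.38 in KO and 1.41 to 4.14 in WT. Myocyte and myofibre markers summed to 343.8 to 586 in KO and 281.2 to 286 in WT. Their median log2 level did not overlap, at 2.25 to 3.91 in KO and 0.137 to 0.254 in WT. Smooth muscle and pericyte markers summed to 317.4 to 730.2 in KO and 165.5 to 253.9 in WT, with overlapping medians. Endothelial sums overlapped, at 86.5 to 180.4 in KO and 144.4 to 263.8 in WT. The part of these lists in the day 0 differences was not tested.

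One day after injury, the replication genes were lower in KO than in WT nearly throughout, but only Mcm10 passed the test. The log2 difference was negative for 42 of the 43 genes, with a median of -0.52 against -0.03 for all genes, and the KO mean was a median of 69.7% of the WT mean, with a range of 25.2% (Mcm10) to 103.2% (Orc6). The test called 0 of the 43 higher and 1 lower, while it called 7.12% of all genes higher and 2.08% lower. That gene, Mcm10, entered the test only through days 1 and 4, and of the 34 that reached the minimum through day 0, 0 were called. Mcm10, which helps the helicase start, was 0.139, 1.42, 5.35 and 1.52 in KO, against 6.58, 7.55, 8.79 and 10.6 in WT (-1.84 ± 0.56; limma, adjusted p = 0.0386), and this call was kept without KO replicate 3 and lost without any other of the 8 day 1 libraries. In 17 of the 43 genes, or 39.5%, all 4 KO libraries lay below all 4 WT libraries, and in none did they lie above, whereas 12.3% of all genes were lower and 13.9% higher in this way. These 17 were Cdc6 of the licensing genes, Mcm10, Cdc45 and Gins1 of the helicase, Prim1, Prim2 and Pole2 of the polymerases, all 5 of Rfc1 to Rfc5 together with Rpa2, and Rrm2, Tyms, Dut and Chaf1b. A fit to the 8 day 1 libraries alone, which takes its estimate of spread from those libraries, called 17 of the 43 lower and 0 higher, with 10.5% of all genes lower and 12.8% higher. Of its 17 genes, 16 were among those without overlap, Gmnn being the addition and Tyms the omission. Cell type markers and the mitochondrial share also moved with genotype at day 1. The 10 fibro-adipogenic markers summed to 1611 to 2348 in KO and 752.8 to 1141 in WT, with 3 called higher in KO. Their median log2 level overlapped, at 2.71 to 3.81 in KO and 2.44 to 2.77 in WT. Of the 10 muscle stem cell markers 5 were lower and 2 higher in KO, and of 11 myocyte and myofibre markers 4 were lower and 1 higher. Pax7, the transcription factor that marks muscle stem cells, was 28.5 to 37.0 in KO, below the lowest WT library at 77.2 (-1.39 ± 0.23; limma, adjusted p = 0.000167). Mitochondrially encoded genes took 3.77 to 6.13% of the counts in KO and 2.20 to 3.68% in WT. Their part in the lower replication genes of KO was not tested.

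Several of these genes show how the libraries lay at day 1. Cdc6 in KO, 11.4 to 20.7, stayed below WT, 34.9 to 49.5 (-1.27 ± 0.79; limma, adjusted p = 0.445, and 0.00287 in the fit to day 1 alone). Rrm2 lay at 49.2 to 86.8 in KO and 123 to 194 in WT (-1.07 ± 0.40; limma, adjusted p = 0.106, and 0.00626 in day 1 alone). Rfc1, at 20.2 to 48.7 in KO and 64.7 to 75.8 in WT, differed by -1.09 ± 0.45 (limma, adjusted p = 0.159, and 0.0108 in day 1 alone). Rfc2 was 68.8, 81.4, 78.5 and 67.1 in KO, against 124, 111, 121 and 108 in WT. In all 4 of these genes the highest KO library was below the lowest WT library. Mcm2, Mcm3 and Pcna were lower in KO on average, by 0.75 ± 0.44, 0.52 ± 0.50 and 0.19 ± 0.20 on the log2 scale, and did not pass in either fit, and their KO and WT libraries overlapped. For Mcm2 and Mcm3, WT replicate 3 was well above the other WT libraries, and that library was the highest of its group for 19 of the 43 genes.

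At day 4 no replication gene passed the test between KO and WT, where 0.53% of all genes were higher and 0.524% lower by limma. At an unadjusted p under 0.05 there were 5 genes, Mcm4, Pold1, Pole, Rfc4 and Rrm2, all lower in KO, and edgeR and DESeq2 also called 0. The log2 difference was negative for 40 of the 43, with a median of -0.48 against -0.03 for all genes, and the KO mean was a median of 75.8% of the WT mean. In 5 genes (Cdt1, Cdc45, Pole, Rfc4 and Rrm2), or 11.6%, the KO libraries lay below all WT libraries, as did 3.86% of all genes. Rrm2 was 23.2, 22.1, 26.5 and 28.9 in KO, against 55.3, 47.3, 41.4 and 81.6 in WT (-1.09 ± 0.40; limma, adjusted p = 0.30). Pole was 0.432, 1.93, 3.79 and 4.32 in KO, against 11.1, 7.27, 6.06 and 8.36 in WT (-1.49 ± 0.47; limma, adjusted p = 0.192). Gmnn was one of the 3 genes with a positive difference, at 8.13, 32.3, 14.2 and 8.08 in KO and 13.3, 13.6, 7.10 and 5.55 in WT. Mitochondrial transcripts and some marker lists moved with genotype at this day. Mitochondrially encoded genes took 43.2 to 47.9% of the counts in KO and 28.0 to 31.4% in WT. The macrophage and monocyte markers summed to 1282 to 1436 in KO and 1544 to 2025 in WT, against 25.5 to 56.4 in KO and 19 to 113.5 in WT at day 0. Their median log2 level overlapped at day 4, at 4.62 to 5.32 in KO and 5.01 to 5.41 in WT. The median of the myocyte and myofibre markers did not, at 3.64 to 4.26 in KO and 4.65 to 5.36 in WT, while their sums overlapped. The part of these transcripts in the day 4 levels was not tested.

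**Figure D3:**
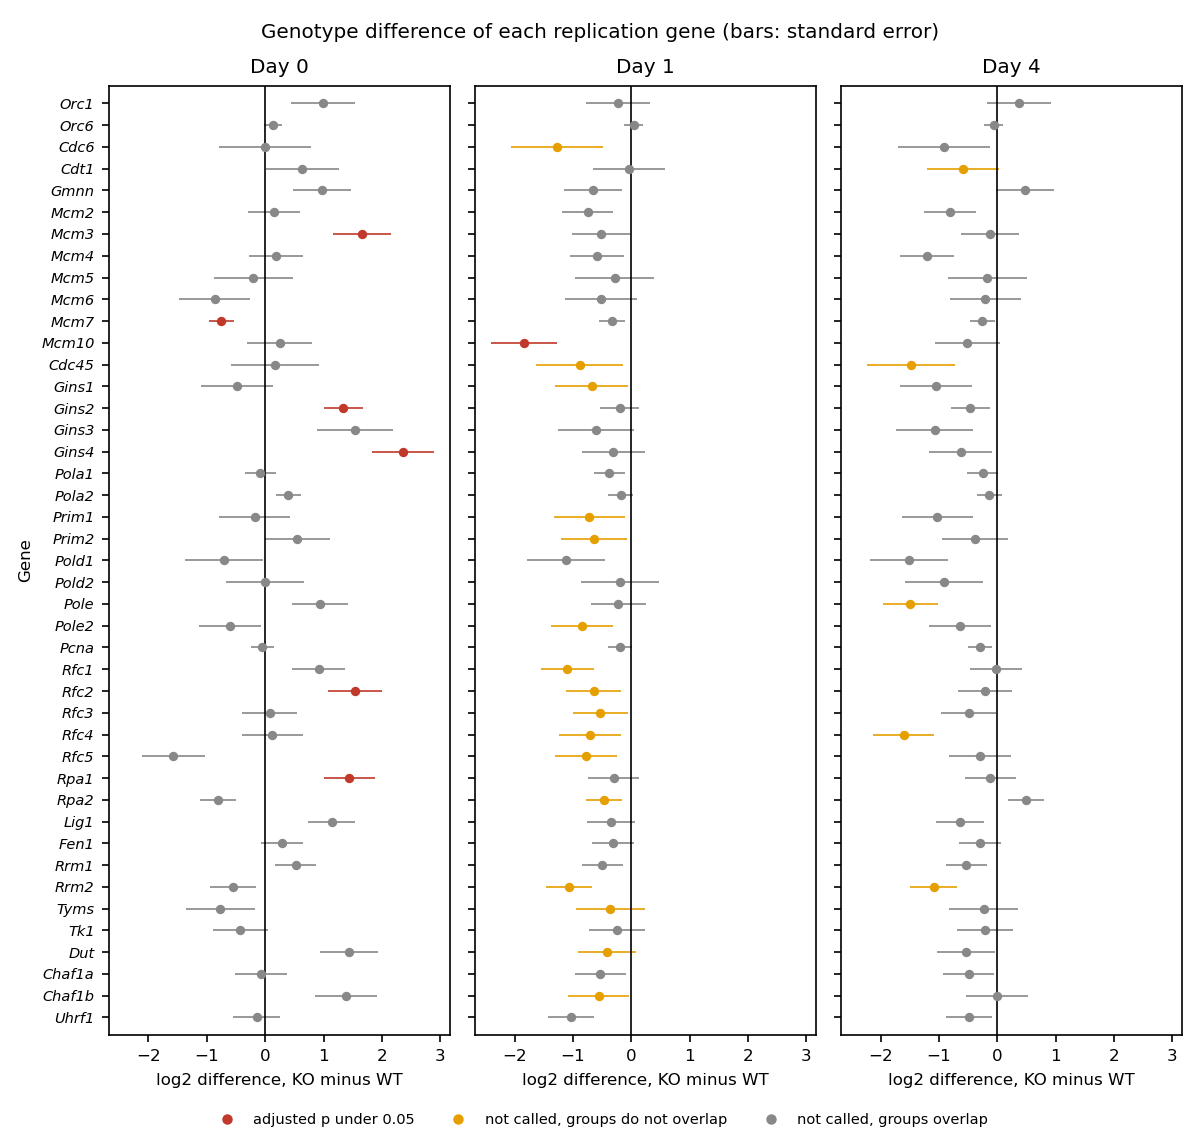
Log2 difference KO minus WT (x axis, ± SE from the limma model, n = 4 libraries per group) of each of the 43 genes (rows) at days 0, 1 and 4. Red points passed the test, orange points did not pass but have KO and WT libraries that do not overlap, and grey points overlap. At day 1, 42 of the 43 points lie left of 0.

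The change over time itself was compared between the genotypes. From day 0 to day 1, 5 genes rose less in KO than in WT and none more, with 7.48% of all genes called more positive and 4.1% more negative in KO. They were Gins4 (-2.67 ± 0.76), Rfc2 (-2.19 ± 0.66), Mcm3 (-2.18 ± 0.71), Rfc1 (-2.01 ± 0.63) and Gins2 (-1.54 ± 0.47), with limma adjusted p of 0.0223, 0.0307, 0.0463, 0.0398 and 0.032. For 4 of the 5 the day 0 level was itself called higher in KO, and Rfc1 differed by 0.91 ± 0.45 at day 0 without passing. In Gins4 the KO libraries stood at 43.7, 49.1, 39.1 and 37.9 at day 1, against 52.5, 47.9, 49.5 and 61.0 in WT, so that the 2 genotypes were closer at day 1 than at day 0. The median of this difference over the 43 was -0.76, and it was negative for 37 of them. Of 26 alternatives for each gene, the call was lost in 19 for Mcm3, 17 for Rfc1, 10 for Gins2, 8 for Rfc2 and 2 for Gins4. The count of 5 was 1 without WT day 1 replicate 1, KO day 1 replicate 1 or KO day 1 replicate 4, 2 without WT day 1 replicate 2 or 3, and 3 without WT day 1 replicate 4 or WT day 0 replicate 2. From day 0 to day 4, Gins4 (-2.99 ± 0.76), Pole (-2.43 ± 0.67) and Gins2 (-1.80 ± 0.47) changed less in KO (limma, adjusted p = 0.0249, 0.0397 and 0.0277), with 2.01% of all genes more positive and 1.98% more negative and a median of -0.81 for the 43. Pole entered the test only through days 1 and 4, so its value is a description, and its call was lost in 13 of 26 alternatives. Among the 34 genes that reached the minimum through day 0, 2 were called. The count of 3 over all 43 was 1 without WT day 4 replicate 2 or 4 or KO day 4 replicate 1 or 2, and 5 without WT day 0 replicate 1 or 3 or KO day 0 replicate 3. From day 1 to day 4 no gene of the 43 passed by limma, 1 (Rpa2) had an unadjusted p under 0.05, 1 (Rfc1) passed in the fit to those groups alone, edgeR and DESeq2 called 0, and the median was 0.04, where 0.759% of all genes were more positive and 3.21% more negative.

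Other genes of replication moved in the same direction at day 1. Of 51 further genes of origin licensing, polymerases, fork protection and nucleotide supply, 29 rose and 3 fell in KO, and 34 rose and 4 fell in WT, where 24.2% of all genes rose and 21.5% fell in KO, and 27.7% rose and 24.9% fell in WT. At day 4, 27 of them were lower and 5 higher than at day 1 in KO, and 28 were lower and 4 higher in WT, against 23.4% of all genes lower and 26.2% higher in KO and 22.6% lower and 27.8% higher in WT. In KO against WT, 2 of the 51 passed upwards and 2 downwards at day 0, and 2 upwards and 4 downwards at day 1. Of all genes, 4.82% passed upwards and 4.93% downwards at day 0, which is near the share of the 51, and 7.12% upwards and 2.08% downwards at day 1. Orc5, of the origin recognition complex, averaged 16.6 ± 6.92 in KO and 1.09 ± 1.00 in WT at day 0 (3.1 ± 0.39; limma, adjusted p = 1.16e-05). At day 1 the genes lower in KO were Atad5, which helps unload the clamp (-1.73 ± 0.50), Wdhd1, which ties the helicase to polymerase alpha (-1.72 ± 0.43), Timeless of the fork protection complex (-1.31 ± 0.39) and Orc3 (-0.95 ± 0.26), while Pold4, a small polymerase delta subunit (1.13 ± 0.19), and Top1, the topoisomerase (1.04 ± 0.13), were higher.

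Regulators of the step from G1 to S phase moved less uniformly. Of 29 such genes, 9 rose and 6 fell in KO at day 1, and 13 rose and 5 fell in WT, beside the 24.2% and 21.5% of all genes that rose and fell in KO and the 27.7% and 24.9% in WT. Between the genotypes 7 were higher in KO at day 0 and 2 at day 1, and none was lower, with 4.82% and 7.12% of all genes higher in KO at days 0 and 1. Cdkn1a, an inhibitor of cyclin-dependent kinases, averaged 646.6 ± 44.8 in KO and 347.7 ± 12.4 in WT at day 0, 526.4 ± 42.2 in KO and 296.9 ± 50.2 in WT at day 1, and 286.6 ± 10.3 in KO and 352.3 ± 31.2 in WT at day 4 (SD, n = 4 each). It was higher in KO at days 0 and 1, by 0.89 ± 0.11 and 0.84 ± 0.11 (limma, adjusted p = 8.27e-06 and 7.51e-06), and did not pass at day 4 (-0.29 ± 0.11, adjusted p = 0.319). E2f1 encodes an activator of replication genes. At day 0 it was 0.166, 0.2505, 0.193 and 0.685 in KO and 0.722, 0.693, 2.5 and 5.88 in WT. It reached the minimum for the test only through days 1 and 4, so its changes from day 0 are a description. At day 1 its log2 change was 2.16 ± 0.47 in KO and 0.91 ± 0.47 in WT, and the difference between these was not past the threshold (limma, adjusted p = 0.246). Ccne1, a cyclin of the G1 to S step, did not pass between days 0 and 1 in either genotype.

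Most genes of mitosis peaked later than those of replication. The mean was highest at day 4 for 21 of 30 mitosis genes in KO and for 26 in WT, while most replication genes fell between days 1 and 4. Of the other mitosis genes, 7 were highest at day 0 and 2 at day 1 in KO, and 4 at day 1 in WT. In uninjured muscle the median log2 level of the 30 mitosis genes was 1.09 to 3.22 in KO and 0.226 to 0.595 in WT libraries, without overlap, and 6 of the 30 passed as higher in KO, as did 4.82% of all genes. At day 1, 2 mitosis genes had risen and 4 had fallen in KO, and 18 had risen and 0 fallen in WT, with 24.2% of all genes risen and 21.5% fallen in KO and 27.7% and 24.9% in WT. At day 4, 11 were higher than at day 0 in KO and 28 in WT, and none was lower, where 22.3% of all genes were higher in KO and 25.7% in WT. The mitosis genes were not split by whether they reached the minimum through day 0, where their WT median was low. Their counts from day 0 are therefore a description. Mki67, a marker of cycling cells, was 43.4, 2.76, 0.304 and 3.24 in KO and 0.103, 2.23, 0.346 and 0.0997 in WT at day 0. It was 4.25, 10.2, 2.48 and 1.47 in KO and 8.53, 18.6, 7.90 and 5.44 in WT at day 1, and 46.6, 44.7, 26.5 and 51.7 in KO and 67.8, 59.7, 61.6 and 49.2 in WT at day 4. KO replicate 1 at day 0, the library highest for 21 replication genes, thus held Mki67 at a level otherwise seen at day 4. Without that library the counts of replication genes called were 36 in KO at day 1, 6 between the genotypes at day 0 and 4 in the change from day 0 to day 1. By the median log2 level of the 30 mitosis genes, however, KO replicate 3 was the highest KO library at day 0. It had 3.22, against 2.71 in KO replicate 1, with Mki67 at 0.304. From day 0 to day 1 Mki67 changed by -0.22 ± 0.69 in KO, which did not pass, and by 2.75 ± 0.69 in WT, and the difference was -2.96 ± 0.97 (limma, adjusted p = 0.836, 0.0017 and 0.0491). Ttk and Aurkb, kinases of the mitotic checkpoint and of chromosome segregation, were lower in KO at day 1, by 2.26 ± 0.38 and 1.96 ± 0.40, and Aurkb was lower in KO at day 4 by 1.72 ± 0.40.

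**Figure D4:**
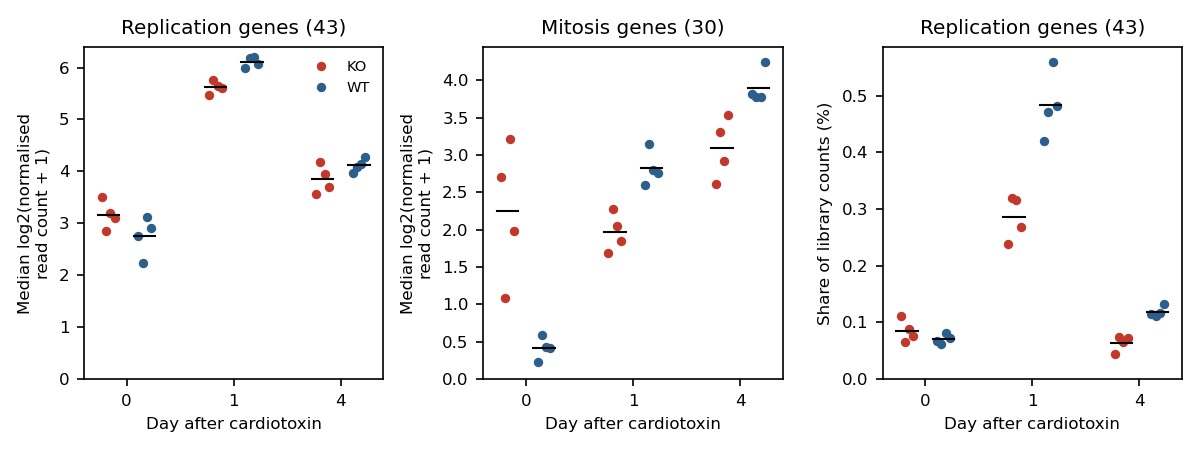
Median log2(normalised read count + 1) of the 43 replication genes and of 30 mitosis genes, and the share of library counts in the 43 genes (percent), in each library at days 0, 1 and 4, KO (red) left of WT (blue), with lines at the group means. The replication medians are 5.47 to 6.20 at day 1 and the mitosis medians 2.62 to 4.25 at day 4. The shares of KO and WT do not overlap at days 1 and 4, while their replication medians overlap at day 4.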

How the data were processed

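RNA of muscle stem cells was sequenced in 24 libraries, which the labels' protocols describe as SMART-Seq v4. The submitters' processing notes name FastQC, STAR, RSEM and limma and the build mm39, with no versions. The authors deposited 1 table of a normalised signal per gene and library. Tested on the table, each value is a whole count with 0.5 added and scaled by a factor for its library. Of the values, 100.0% gave whole counts within 0.02, with totals of 11.58 to 22.47 M reads. The factor does not follow the total of counts alone. A count of 0 stood at 0.0393 in KO day 4 replicate 1, with 17.11 M reads, and at 0.0345 in WT day 4 replicate 1, with 12.15 M reads.

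The normalised counts plus a pseudocount of 1 were put on the log2 scale, which understates changes of low genes, and fitted in limma 3.58.1 (R 4.3.3) with a mean-variance trend over all 24 libraries and 6 groups. Genes that reached 1 in 4 or more libraries entered the test (16985 genes, with 126 left out). P-values are two-sided and Benjamini-Hochberg adjusted over all tested genes, with a threshold of 0.05. Standard errors come from this model, and so share the spread of all groups. Alternatives were DESeq2 1.42.0 and edgeR 4.0.16, both run on the whole counts, other filters, pseudocounts and scalings, a replicate block, fits to the compared groups alone and fits without each library.

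The members and lists were chosen with earlier results of these data known. Values in every library are given for Pcna, Mcm2, Mcm3, Cdc6, Gmnn, Rrm2, Uhrf1 and Rfc1, for up to 6 members past the threshold with the largest change in each comparison of genotypes, and for the member with the lowest mean. Other members are named where they have the largest or smallest change of their role, or where a count of few is spelled out. Levels per kilobase used the longest protein-coding transcript of GENCODE M21. Whether the counting used strand is not given in the sources used here, so overlapping and antisense genes are uncertain, as are genes with near-identical pseudogene copies, which Pcna, Dut and Tyms may have.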

Additional observations from a re-analysis of the deposited data

Results flagged for a closer look

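In groups of 4 libraries, a library was singled out where its gap to the nearest other exceeded the 95% critical value of Dixon's test. Chance gives about 1 in 20 groups, and 12 of 156 were singled out. Among replication genes, Pcna was low in WT day 1 replicate 3 (441.3), Mcm2 in WT day 4 replicate 4 (10.14), Uhrf1 in WT day 4 replicate 1 (18.24), Mcm7 in WT day 0 replicate 4 (35.59) and Pole in WT day 1 replicate 4 (6.129). Gmnn was high in WT day 0 replicate 1 (1.135), as was Mcm10 (3.68), Uhrf1 was high in WT day 0 replicate 4 (2.293) and Gins3 in KO day 4 replicate 4 (3.926). Outside the 43 genes, the median log2 level of the mitosis genes was high in WT day 4 replicate 4 (4.247), Cdkn1a was low in WT day 4 replicate 2 (306.0) and E2f1 in KO day 4 replicate 1 (3.966).

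The change over time differed between KO and WT for some genes, by the limma test of the difference (KO change minus WT change, log2). From day 0 to day 1 it was -2.18 for Mcm3, -1.54 for Gins2, -2.67 for Gins4, -2.01 for Rfc1, -2.19 for Rfc2, -2.96 for the proliferation marker Mki67 and -1.59 for the stem cell factor Pax7. From day 0 to day 4 it was -1.80 for Gins2, -2.99 for Gins4, -2.43 for Pole and -1.18 for Cdkn1a. The value for Pole is a description, as Pole entered the test only through days 1 and 4. From day 1 to day 4 it was -1.13 for Cdkn1a and 1.62 for Pax7.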

How the results depend on the processing

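Counts of replication genes called between days within a genotype stayed within 1.5 times under every alternative run except KO day 4 against day 0, where 13 became 7 with only the groups compared. Over fits that left out each library in turn they were 33 to 36 (KO) and 39 to 40 (WT) for day 1 against day 0, 26 to 32 and 29 to 31 for day 4 against day 1, and 12 to 16 and 22 to 26 for day 4 against day 0.

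Counts between genotypes depended on the setting. At day 0, 6 became 2 with quantile normalization, 2 without the mean-variance trend, 0 with only the groups compared and 11 with DESeq2, and was 3 to 7 without each library. At day 1, 1 became 0 with the stricter filter, which left Mcm10 untested, quantile normalization, pseudocount 0.5 and edgeR, 3 with pseudocount 5 and 17 with only the groups compared, and was 0 to 1 without each library. At day 4 it was 0 in all of these. The difference in change from day 0 to day 1 called 5 genes, which became 1 with quantile normalization, 3 without the trend, 2 with only the groups compared, 2 with edgeR and 11 with DESeq2, and was 1 to 6 without each library. From day 0 to day 4, 3 became 0 with only the groups compared, 1 with edgeR and 9 with DESeq2, and was 1 to 5 without each library. From day 1 to day 4, 0 became 1 with only the groups compared. The causes were not tested.

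Replicate numbers did not pair the samples (same-number correlations of -0.024 to 0.27), and with the replicate block the counts were 7, 0 and 0 between the genotypes at days 0, 1 and 4, and 4, 3 and 0 for the differences in change. The negative direction at day 1 held for 42 or 43 of the 43 genes, or 40 with the stricter filter, which left Mcm10 and Gins3 untested, and DESeq2 moved the median of all genes there to -0.17, against -0.66 for the 43. For day 4 against day 1 the median of all genes was 0.01 in KO and -0.004 in WT with quantile normalization, and 0.57 in KO and 0.42 in WT with DESeq2. Of 4736 alternatives for 235 single-gene results, 168 lost a call, 83 gained one and 0 reversed. The day 0 values are the most limited, as several genes rest on few counts there and the libraries of a group differed most.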
